A study of Mus musculus with 6 samples.

Results

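Distal chromosome 10 of the mouse is described here through the methylated-DNA peaks listed on it in I/11 erythroblasts. The members are all peaks that start at or above 70000000 and end at or below 131000000 on mm10 chromosome 10, with peaks in the body of Pcdh15 (73096277 to 74649831) left out. They number 1051 of the 12963 peaks of the series. The stretch was chosen by peak density, because earlier counts of these same lists had shown an excess of peaks there. Its number of peaks is therefore given as a description and was not tested.

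I/11 cells are immature red blood cell precursors of the mouse. The line was derived from livers of p53-deficient fetuses at day E12.5, so every group carries that deficiency. Cells of all groups were infected with lentivirus carrying a small hairpin RNA, selected with 1 ug/ml puromycin, and grown with erythropoietin (Epo), stem cell factor and dexamethasone. The 4 libraries with a peak list carried hairpin 133 or hairpin 14, both directed at Plcg1, which encodes phospholipase C gamma 1, and were taken 72 h after infection (0 h of differentiation) or 96 h after it, following 24 h in medium with 10 U/ml Epo and no stem cell factor or dexamethasone. The 2 libraries with a scrambled hairpin came with no peak list and are not analysed here. Values below are given in the order hairpin 133 and hairpin 14 at 0 h, then hairpin 133 and hairpin 14 at 24 h. Each group is 1 library, so no difference between conditions has a replicate check, and all tests compare peaks within lists.

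In mammals a methyl group is added to cytosine mainly where a guanine follows it, a pair of bases called a CpG. Promoters rich in CpG are as a rule unmethylated, and their methylation goes with a silent gene, whereas the bodies of transcribed genes are commonly methylated. The assay binds sheared DNA with MBD2-Fc, a methyl-CpG binding domain joined to an antibody tail, and so collects fragments that are methylated and dense in CpG. The lists give positions only. Whether a listed peak stands for more or less methylated DNA than in the control hairpin is not stated in the labels or files, so no peak carries a direction.

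Sequences are shown for the start-site windows of the interval that met the peaks of most lists. Each window holds 250 bases before to 50 bases after a gene's start, from RefSeq on GRCm38.p6, written 5′ to 3′ on the gene's strand with every CpG in capitals. Of 1016 such windows in the interval outside Pcdh15, 21 overlapped a peak, and 4 of these did so in all lists. The share of windows with a peak over the whole genome was not computed, so this count is a description. Windows of neighbouring genes can meet the same peak.
Slc16a9, a member of the monocarboxylate transporter family, chr10:70245026-70245325, plus strand: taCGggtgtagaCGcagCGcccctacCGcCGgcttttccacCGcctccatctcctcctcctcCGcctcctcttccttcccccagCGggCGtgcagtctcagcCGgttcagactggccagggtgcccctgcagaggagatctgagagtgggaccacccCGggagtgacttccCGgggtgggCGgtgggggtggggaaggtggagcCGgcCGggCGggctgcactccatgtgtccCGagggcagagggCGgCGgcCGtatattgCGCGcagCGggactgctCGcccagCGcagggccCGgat
Trpm2, a calcium-permeable cation channel, chr10:77969823-77970122, minus strand: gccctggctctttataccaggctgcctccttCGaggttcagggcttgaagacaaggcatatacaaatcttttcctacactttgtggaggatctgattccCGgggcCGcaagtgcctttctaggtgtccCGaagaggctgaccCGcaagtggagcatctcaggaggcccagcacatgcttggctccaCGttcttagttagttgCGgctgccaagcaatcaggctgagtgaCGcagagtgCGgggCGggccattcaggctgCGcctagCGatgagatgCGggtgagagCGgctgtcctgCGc
Gm40770, a predicted gene, chr10:117418056-117418355, minus strand: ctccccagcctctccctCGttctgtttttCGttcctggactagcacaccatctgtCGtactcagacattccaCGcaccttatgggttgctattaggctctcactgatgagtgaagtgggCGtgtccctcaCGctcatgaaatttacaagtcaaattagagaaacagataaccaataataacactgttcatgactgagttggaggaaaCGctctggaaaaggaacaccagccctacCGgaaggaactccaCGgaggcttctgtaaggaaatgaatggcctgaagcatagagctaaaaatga
Cpm, carboxypeptidase M, a membrane enzyme that trims the ends of peptides, chr10:117629250-117629549, plus strand: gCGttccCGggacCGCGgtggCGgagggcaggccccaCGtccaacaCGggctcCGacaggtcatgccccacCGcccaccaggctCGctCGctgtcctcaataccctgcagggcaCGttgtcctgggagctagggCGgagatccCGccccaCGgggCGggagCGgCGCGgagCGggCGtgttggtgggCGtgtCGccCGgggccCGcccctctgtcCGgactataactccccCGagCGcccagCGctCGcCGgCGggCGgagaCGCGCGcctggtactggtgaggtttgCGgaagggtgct
The next windows by position met peaks in 2 lists, Ggt1 at 24 h only and Spatc1l at 0 h only. The peak at Spatc1l also met the window of a predicted gene on the opposite strand.
Ggt1, gamma-glutamyltransferase, an enzyme of glutathione breakdown, chr10:75568412-75568711, plus strand: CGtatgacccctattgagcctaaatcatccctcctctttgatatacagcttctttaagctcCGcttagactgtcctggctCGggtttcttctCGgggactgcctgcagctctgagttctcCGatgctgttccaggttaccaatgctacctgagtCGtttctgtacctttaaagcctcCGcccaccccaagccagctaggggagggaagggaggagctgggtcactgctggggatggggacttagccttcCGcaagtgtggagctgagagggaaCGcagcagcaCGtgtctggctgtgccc
Spatc1l, chr10:76562022-76562321, plus strand: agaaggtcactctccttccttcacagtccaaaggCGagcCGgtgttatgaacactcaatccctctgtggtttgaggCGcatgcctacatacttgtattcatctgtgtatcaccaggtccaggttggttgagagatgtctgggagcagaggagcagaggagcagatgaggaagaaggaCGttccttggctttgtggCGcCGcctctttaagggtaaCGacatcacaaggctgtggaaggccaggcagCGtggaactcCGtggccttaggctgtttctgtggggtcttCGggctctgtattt

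These windows differed widely in CpG. The Cpm window held 37 CpG, 23 of them in the 197 bases that peaks covered, and its GC content was 73.7%. Slc16a9 held 26 CpG with 8 in the 89 covered bases, Trpm2 held 15 with 8 in 84, and Gm40770 held 9 with 4 in 114. Ggt1 and Spatc1l held 10 each, 6 of them in 151 covered bases and 7 in 143. Over the 21 windows with a peak the median was 10 CpG, against 8 in all windows of the interval and 7 in all 32851 windows of the genome. At least 1 CpG (the letters CG, which read the same on both strands) was present in 100% of the windows with a peak, in 94.9% of those of the interval and in 94.6% of all. The assay selects for CpG, so these counts are a description. The distance of the peak centres from the annotated start was -206 to 57 bp for Cpm, -244 to -237 bp for Slc16a9, 41 to 46 bp for Trpm2 and -236 to -212 bp for Gm40770.

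The interval held 296, 261, 261 and 233 peaks, or 7.59%, 7.59%, 8.82% and 8.74% of the lists. Exact binomial 95% intervals were 6.78 to 8.47%, 6.73 to 8.53%, 7.82 to 9.90% and 7.69 to 9.88%. They overlap between the times, and they cover counting error only, since read depth is unknown. Every peak here was 151 bp wide, so the peaks covered 44.7, 39.4, 39.4 and 35.2 kb. Per Mb between the nominal bounds, Pcdh15 left out, there were 4.98, 4.39, 4.39 and 3.92 peaks. The proximal part of the same chromosome held 1.33, 1.39, 0.747 and 0.867 per Mb, and the other autosomes ranged from 1.15 to 2.19, 0.924 to 1.90, 0.797 to 1.79 and 0.682 to 1.61. Protein-coding genes lay at 11.0 per Mb in the interval, within the range of 5.80 to 14.3 per Mb of the other autosomes. At the proximal bound, the last Mb outside held 7, 6, 5 and 3 peaks and the first Mb inside held 5 in every list. The nearest peaks lay 201.6, 201.6, 139.9 and 0.449 kb outside the bound and 61.1, 219.6, 61.1 and 245.0 kb inside it.

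Peaks were spread unevenly along the interval. The fullest Mb, from 75 to 76 Mb, holds genes from Rab36 and Bcr to the glutathione transferases and Mif. It held 15, 22, 27 and 29 peaks, with exact Poisson 95% intervals (counting error only) of 8.40 to 24.7, 13.8 to 33.3, 17.8 to 39.3 and 19.4 to 41.6. The count was highest in the 24 h lists although these are the shorter lists, and the intervals of all 4 overlap. The Mb from 115 to 116, which holds Tph2 and Lgr5, held 25, 19, 22 and 18 peaks, and that from 117 to 118, with Cpm and Mdm2, held 11, 13, 11 and 7. Next by count came the Mb from 74 to 75, with Gnaz and Rsph14, which held 10, 8, 7 and 11. As 65.0% of that Mb is excluded Pcdh15 body, its peaks stood at 103 per counted Mb over all lists, against 93 in the Mb from 75 to 76. Then came the Mb from 76 to 77, with Prmt2 and Dip2a, which held 10, 9, 7 and 9. The 3 fullest Mb of each list held 17.2%, 20.7%, 23.0% and 24.9% of its interval peaks.

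**Figure D1:**
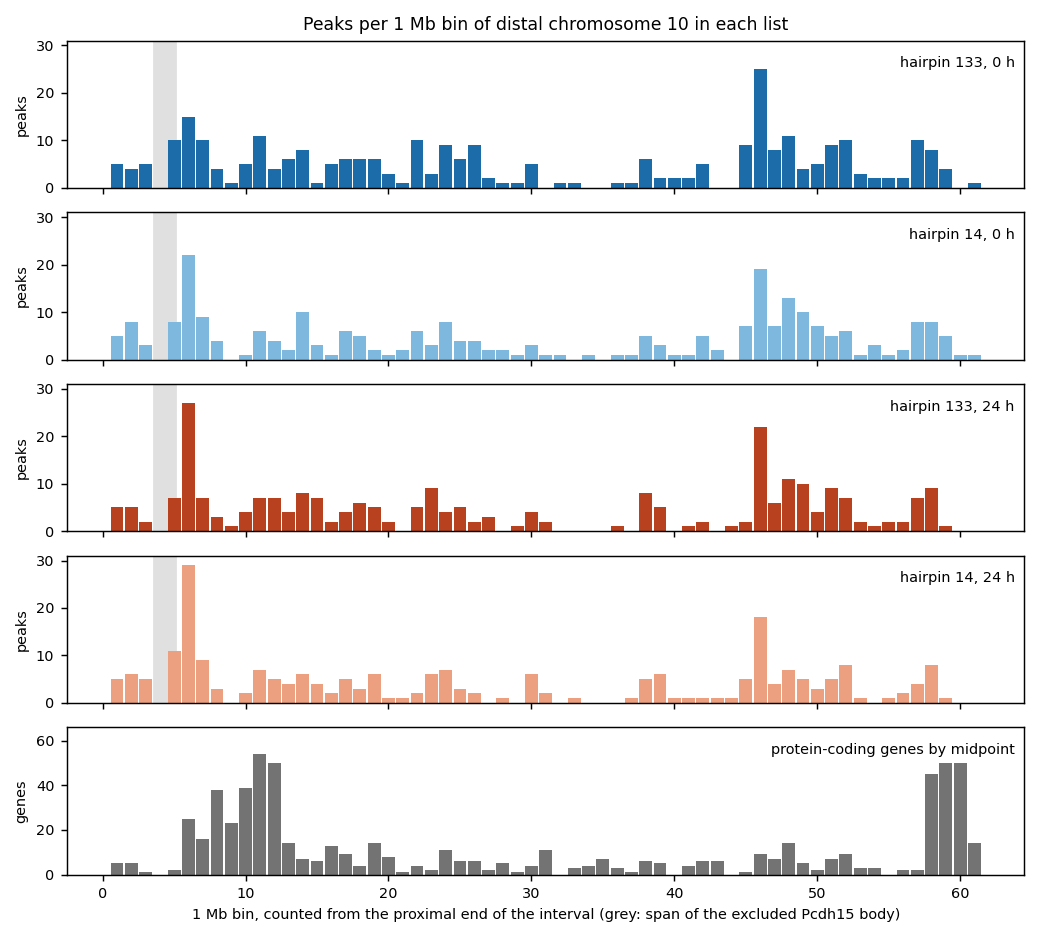
Peaks per 1 Mb bin for each list (upper 4 panels, bars) and protein-coding genes per bin by gene midpoint (lowest panel), with bins counted from the proximal end of the interval. The bars reach 29 at bin 6 (75 to 76 Mb) and 25 at bin 46 (115 to 116 Mb), while gene counts are highest elsewhere.

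Stretches that were set off after the counts had been seen show the contrast. From 74 to 77 Mb there were 17.4 peaks per Mb and list over the 2.35 Mb outside the Pcdh15 body, and from 114 to 122 Mb, which runs from Trhde past Lgr5, Cpm, Grip1 and Hmga2 to Tbk1, there were 8.78. From 97 to 107 Mb, a gene-poor stretch with Dcn, Kitl, Alx1 and Ppfia2, there was 1.03, and the Mb from 104 to 105 held 0 peaks in every list. Apart from that Mb, a bin without a peak in any list was found only from 73 to 74 Mb, of which 90.4% is within the excluded Pcdh15 body. From 77 to 83 Mb, with 218 protein-coding genes, there were 3.96 peaks per Mb and list, against 4.32 from 83 to 97 Mb with 93 genes. From 128 to 131 Mb, with 114 genes, many of them olfactory receptors, there was 1.17. Across the 59 bins outside Pcdh15, the rank correlation of peaks with gene number was 0.339, 0.271, 0.350 and 0.350, and Pearson's r was 0.158, 0.139, 0.174 and 0.185. These bins share library and neighbourhood, and the values are descriptions without a test.

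Neighbouring peaks of a list lay a median of 90.7, 91.7, 81.8 and 80.3 kb apart. Within 1 kb of each other were 2.03%, 3.85%, 3.46% and 2.59% of neighbours. The longest stretch without a peak was 3318, 2153, 4864 and 4518 kb, in each list between 100 and 107 Mb. Merged over the lists by an overlap of at least 1 bp, the peaks formed 740 regions, of which 609 (82.3%) stood in 55 runs of 3 or more regions with gaps of at most 100 kb. The longest run reached from the edge of Pcdh15 (74655334) to 76449838, over 1795 kb from Rsph14 to Pcnt, and held 96 regions, 6 of them in all lists. The next reached from 114641168 to 115694819, from Trhde to Lgr5, and held 59 regions, 3 of them in all lists. A run at Cpm, Mdm2 and Il22 held 31 regions and another from Ctdsp2 to Myo1a, which spans Cdk4, Gli1, Lrp1 and Stat6, held 29.

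Of the 740 regions, 516 (69.7%) came from 1 list, 164 (22.2%) from 2, 33 (4.46%) from 3 and 27 (3.65%, 95% interval 2.42 to 5.26%) from all 4. On the other chromosomes these shares were 80.1%, 14.8%, 2.86% and 2.23% (1.93 to 2.55%) of 9077 regions. A region of several lists adds several peaks to the counts by which the interval was chosen, so this contrast is not independent of that choice. Among regions of 2 lists, 66 came from both hairpins at 0 h and 46 from both hairpins at 24 h, whereas 20 came from hairpin 133 at both times and 13 from hairpin 14 at both times. Regions of different hairpins at different times numbered 13 (hairpin 133 at 0 h with hairpin 14 at 24 h) and 6 (hairpin 14 at 0 h with hairpin 133 at 24 h). The 27 regions of all lists spanned 151 to 194 bp, against 151 bp for a single peak. Of these regions, 10 (37.0%, 19.4 to 57.6%) were centred at most 1 kb from the start or end of a protein-coding gene body, as were 45 (8.72%, 6.43 to 11.5%) of the regions of 1 list. Regions of 2 lists had 14 (8.54%, 4.75 to 13.9%) and those of 3 lists had 2 (6.06%, 0.743 to 20.2%), so the share did not rise steadily with the number of lists. Differences between these gene-end shares were not tested.

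The 10 regions of all lists at gene ends lay at 9 genes. At Cpm 2 of them flanked the start, chr10:117629219-117629372 and chr10:117629476-117629632, and the next region (chr10:117629697-117629868) was in 3 lists, all but hairpin 14 at 24 h. At Lgr5, an R-spondin receptor and marker of epithelial stem cells, chr10:115587707-115587900 lay on the distal end of the gene body, with its centre 23 bp outside. At Slc16a9 the region was chr10:70244957-70245114, at Trpm2 chr10:77969751-77969906, and at Mmp11, a matrix metalloproteinase, chr10:75932232-75932383. Adora2a, an adenosine receptor gene, had chr10:75317200-75317369 at 407 bp from an end of its body. Syn3, a synapsin of nerve terminals, had chr10:86498755-86498918 at 90 bp from an end, and Efna2, an ephrin ligand, had chr10:80190548-80190704 at 616 bp. The region chr10:127170873-127171037 lay 438 bp from an end of Slc26a10, inside the body of its neighbour B4galnt1, a ganglioside-making enzyme. The gene table gives no exons, so exon, intron and untranslated region could not be told apart.

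Measured against all other chromosomes, peaks of the interval were found more often in a second list. The interval was chosen by peak counts of these same lists, in which a region of several lists counts several times. Being found in a second list is therefore not independent of that choice, and the p-values for it are descriptive. In the list of the other hairpin at its time point, 37.2%, 42.1%, 34.1% and 38.2% of the interval peaks were found, against 30.2%, 34.4%, 24.1% and 26.9% elsewhere, or 6.92, 7.75, 10.0 and 11.3 percentage points more (Fisher's exact test, two-sided, adjusted over 24 tests, p = 0.0364, 0.0364, 0.00263 and 0.00263). In the list of its own hairpin at the other time point, 21.6%, 21.5%, 24.5% and 24.0% were found, against 12.3%, 13.3%, 16.2% and 17.3% elsewhere, or 9.35, 8.19, 8.28 and 6.78 points more (adjusted p = 0.000294, 0.00263, 0.00449 and 0.0360, Fisher's exact test). The tests at the ends of a pair of lists rest on the same shared peaks (110 at 0 h, 89 at 24 h, 64 for hairpin 133 and 56 for hairpin 14) and are not independent of each other. Lists of the same time may have been made with the same control library, on which the labels are silent. Against chromosomes 11 and 12 alone, none of these 8 differences passed: they were 2.005 to 5.59 points with the other hairpin (adjusted p = 0.409 to 0.762, Fisher's exact test) and 1.48 to 5.12 at the other time (0.226 to 0.791). Shares on chromosomes 11 and 12 were higher than on all other chromosomes, so the differences themselves shrank. They were 34.0%, 40.1%, 30.3% and 32.6% with the other hairpin, and 16.5%, 19.5%, 21.0% and 22.6% at the other time. With hairpin 133 at 0 h these chromosomes held 2.08 and 2.19 peaks per Mb, the upper end of the other autosomes. Without peaks listed at the same start and end in both, a step that removes most shared peaks, the 0 h differences with the other hairpin turned to -0.544 and -0.477 points. Thinning peaks to 10 kb apart ended the call for hairpin 14 at 0 h with the other hairpin, and leaving out the fullest Mb ended those for hairpin 133 at 0 h with the other hairpin and hairpin 14 at 24 h at the other time (Fisher's exact test, adjusted p = 0.0993, 0.0637 and 0.0709). Identical start and end were found in 94 of the 110 peaks shared at 0 h (85.5%, against 78.7% elsewhere, adjusted p = 0.162, Fisher's exact test) and in 79 of the 89 shared at 24 h (88.8% against 93.1%, adjusted p = 0.256), and against chromosomes 11 and 12 the 0 h difference turned to -4.02 points. Between times, 2 of the 64 shared peaks of hairpin 133 (3.1%) and 1 of the 56 of hairpin 14 (1.8%) had identical coordinates. Why coordinates matched within a time and seldom between times was not tested.

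Gene ends took a smaller share of peaks here than elsewhere in every list. With adjustment over all 24 tests the difference passed in 3 of the 4 lists. Those 24 include the tests of being found in a second list, which are not independent of the choice of interval. Without them the call for hairpin 133 at 0 h (unadjusted p = 0.0224, Fisher's exact test) may not hold, which was not tested. Peaks centred at most 1 kb from the start or end of a protein-coding body made up 9.46%, 13.4%, 9.96% and 12.9% of the interval peaks, against 14.2%, 14.8%, 20.2% and 21.9% on the other chromosomes, a difference of -4.76, -1.36, -10.3 and -9.00 points (Fisher's exact test, adjusted p = 0.0449, 0.669, 0.000294 and 0.00391). With windows of 2 kb the difference for hairpin 133 at 0 h no longer passed (-4.89, adjusted p = 0.0850, Fisher's exact test), nor did it with peaks thinned to 10 kb apart (-4.57, adjusted p = 0.0744). With 500 bp neither it (-1.79, adjusted p = 0.447, Fisher's exact test) nor hairpin 14 at 24 h (-4.29, adjusted p = 0.129) passed, and against chromosomes 11 and 12 none of the 3 did (-5.85, -8.22 and -5.60, adjusted p = 0.226, 0.0867 and 0.226). Within the interval the share at gene ends did not pass a difference between 24 h and 0 h, at 0.502 points for hairpin 133 and -0.534 for hairpin 14 (adjusted p = 0.931 each, Fisher's exact test), and both turned sign with peaks thinned or windows of 500 bp. The odds of a gene-end peak at 24 h were 1.06 and 0.954 times those at 0 h in the interval and 1.53 and 1.62 times elsewhere. The ratio of these odds ratios was 0.692 (95% interval 0.389 to 1.23) for hairpin 133 and 0.591 (0.344 to 1.02) for hairpin 14, and both intervals include 1. The interaction was added after the shares had been seen and was tested by a likelihood ratio over peaks (adjusted over 3 tests, p = 0.318 and 0.169; it is an approximation, not an exact or permutation test).

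Protein-coding gene bodies held 52.4%, 55.2%, 56.3% and 57.5% of the interval peaks, against 58.7%, 57.8%, 60.5% and 64.1% elsewhere, and no difference passed (-6.38, -2.64, -4.21 and -6.54 points, adjusted p = 0.0679, 0.521, 0.256 and 0.0926, Fisher's exact test). Without the fullest Mb that of hairpin 14 at 24 h passed (-8.66, adjusted p = 0.0306, Fisher's exact test). Farther than 10 kb from any gene were 17.6%, 16.9%, 17.6% and 18.0%, against 15.8%, 16.7%, 13.6% and 12.3%. For hairpin 14 at 24 h this difference of 5.77 points passed (Fisher's exact test, adjusted p = 0.0380), and it was lost with a limit of 50 kb (0.593 points, adjusted p = 0.683), with the Pcdh15 body kept (4.89, 0.0628) and with thinned peaks (5.01, 0.107). Its unadjusted p was 0.0174 (Fisher's exact test), and the call may not hold without the second-list tests in the adjustment. In the other lists the difference was 1.77, 0.197 and 4.04 points (adjusted p = 0.517, 0.931 and 0.121, Fisher's exact test), of which the last passed without the fullest Mb (6.07, adjusted p = 0.0304). In all, 12 of the 24 tests passed with all other chromosomes as the reference and none of these 12 with chromosomes 11 and 12. The 12 include every test of being found in a second list, whose p-values are descriptive only.

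**Figure D2:**
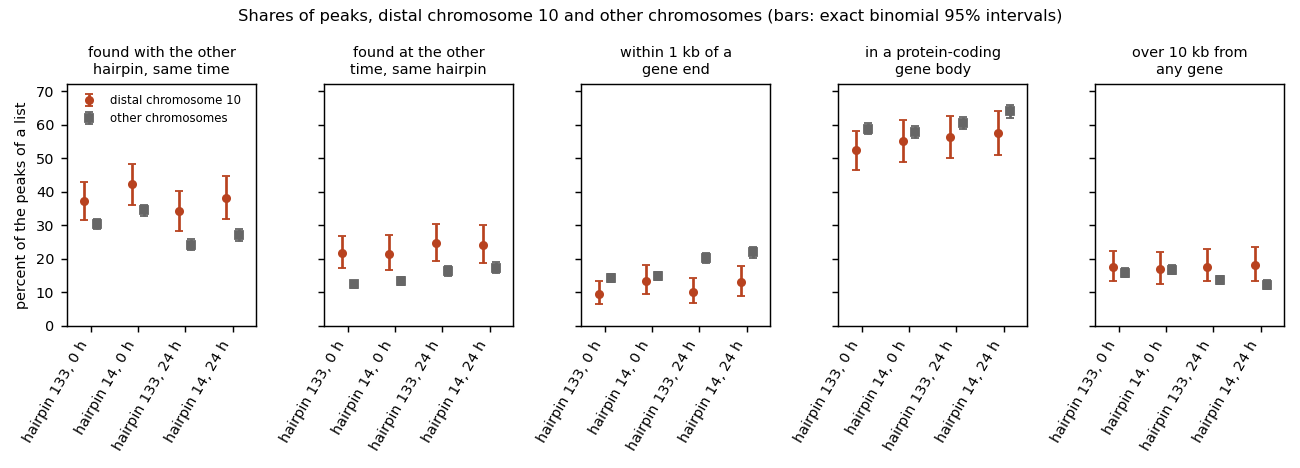
Percent of the peaks of each list with 5 properties, for distal chromosome 10 (circles) and the other placed chromosomes (squares), with exact binomial 95% intervals. In the 2 left panels every circle is above its square, and in the middle panel every circle is below it, least so for hairpin 14 at 0 h (13.4% against 14.8%).

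Of the 654 protein-coding genes of the interval, 25.8%, 22.5%, 22.9% and 21.3% had a peak in the body or within 10 kb, 42.0% had one in any list and 7.95% (52 genes) had one in all 4 lists. On the other chromosomes 12.4%, 10.7%, 10.2% and 9.40% of genes did, and 1.90% in all lists, a difference that the choice of the interval fixes. Gene length moves with these counts: the median was 45.9 kb for genes with a peak in all lists, 25.6 kb for those with a peak in 1 to 3 lists and 7.13 kb for the 379 without. A peak can count for several neighbouring genes. Genes named below are those with most regions or lists among all genes or within a gene list, and the share of 42.0% is given as the value beside each list. It is not adjusted for gene length and includes 68 olfactory receptors (median 0.939 kb) without a peak. The median length was 17.9 kb for ligands and receptors and 35.4 kb for matrix and adhesion genes. Differences of a list from 42.0% were not tested and are not read as a result about its genes. The share of 42.0% includes peaks within 10 kb of the body, so counts given below for the gene body alone cannot be set against it.

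Tph2, the gene of the enzyme that starts serotonin synthesis in neurons, and Grip1, a scaffold of glutamate receptors, had the most regions, 11 each in the body or within 10 kb. Tph2 had 5, 2, 4 and 5 peaks in the lists over a body of 106 kb, and none of its regions was in all lists. Grip1 had 4, 4, 3 and 1 over 634 kb. Chst11, a chondroitin sulfotransferase, had 5, 5, 3 and 1 peaks in 10 regions, and Tmcc3 had 4, 4, 3 and 2 in 9. Msrb3, a methionine sulfoxide reductase with 1 region of all lists, had 6 peaks with hairpin 133 at 0 h and 1, 1 and 2 in the other lists. Rab21, a GTPase of endosomes, had 5, 2, 2 and 2. In the short gene Gstt1, a glutathione transferase of 14.8 kb, there were 1, 3, 2 and 4. With 1 library per group, differences between these counts were not tested.

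**Figure D3:**
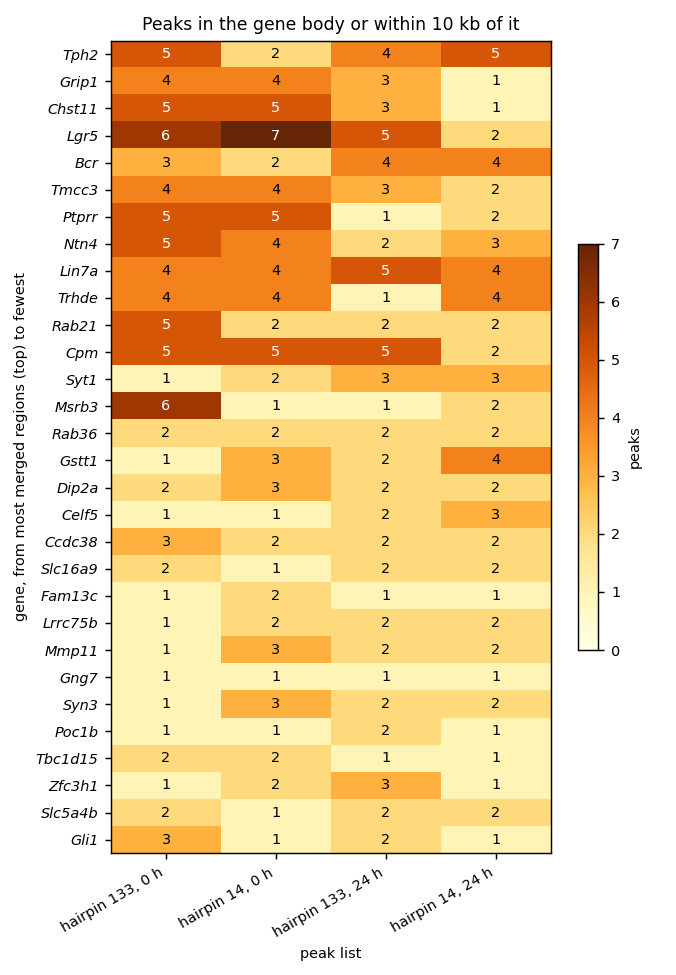
Number of peaks in the body or within 10 kb for the 30 genes with a peak in all 4 lists that had most merged regions, ordered from most to fewest regions (rows), in each list (columns; the number is printed in each cell). Lgr5 reaches 7 with hairpin 14 at 0 h, while Fam13c, Gng7 and Poc1b have 1 or 2 in every list.

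Among 27 ligands, receptors and their binding proteins, 13, 11, 10 and 10 had a peak, 17 in any list (63.0%) and 5 in all. Lgr5 had 6, 7, 5 and 2 peaks in 10 regions, of which 2 were in all lists, and the fewest were with hairpin 14 at 24 h. Ntn4, the secreted guidance and matrix protein netrin 4, had 5, 4, 2 and 3 peaks in 8 regions, a pair of them at 403 and 604 bp from its start. Ptprr, a receptor-type tyrosine phosphatase that acts on MAP kinases, had 5 and 5 peaks at 0 h and 1 and 2 at 24 h in 9 regions. Adora2a had 1 in each list and Efna2 had 1, 1, 2 and 2. For Kit signalling in erythroblasts, Kitl, the ligand of the Kit receptor, had a peak in its body in 1 list only, hairpin 14 at 24 h (named after its values were seen).

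Transcription factors and chromatin genes had a peak in 10, 12, 13 and 6 of 36 members, 18 (50%) in any list and 2 in all. Gli1, the effector of hedgehog signalling, had 3, 1, 2 and 1 peaks within 10 kb and none in its body. The region of all lists beside it, chr10:127326323-127326486, lies in Arhgap9, a gene of blood cells. Hmga2, an architectural protein of stem and fetal cells, had 1, 0, 2 and 2 peaks in 4 regions of its body. Cry1, a clock repressor, had 1, 0, 1 and 1, and Myf5, a muscle determination factor, had 1, 1, 1 and 0.

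Neuronal, synaptic and channel genes had the highest share, with a peak in 15, 11, 12 and 13 of 23 members, 19 (82.6%) in any list and 7 in all. These genes are long, with a median of 154 kb, and the count was not adjusted for length. Lin7a, which holds channels and receptors at cell junctions, had 4, 4, 5 and 4 peaks in 8 regions. The region chr10:107389058-107389214 in its body was in all lists, and a peak centred 130 bp from an end of its body was listed with hairpin 14 at 24 h alone. Syt1, a calcium sensor of vesicle release, had 1, 2, 3 and 3, Syn3 had 1, 3, 2 and 2, and Celf5, an RNA-binding protein, had 1, 1, 2 and 3. Trhde, a peptidase that degrades thyrotropin-releasing hormone, had 4, 4, 1 and 4 peaks.

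Matrix and adhesion genes had a peak in 6, 8, 8 and 4 of 17 members, 11 (64.7%) in any list and 3 in all. These counts include Cpm, which is a membrane enzyme rather than a matrix or adhesion protein. Cpm had 5, 5, 5 and 2 peaks in 8 regions, 3 of them next to each other at its start. Mmp11 had 1, 3, 2 and 2. Col18a1, whose product is the source of endostatin, had 0, 1, 1 and 2, and Stab2, a scavenger receptor of liver sinusoids, had 2, 1, 1 and 0.

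**Figure D4:**
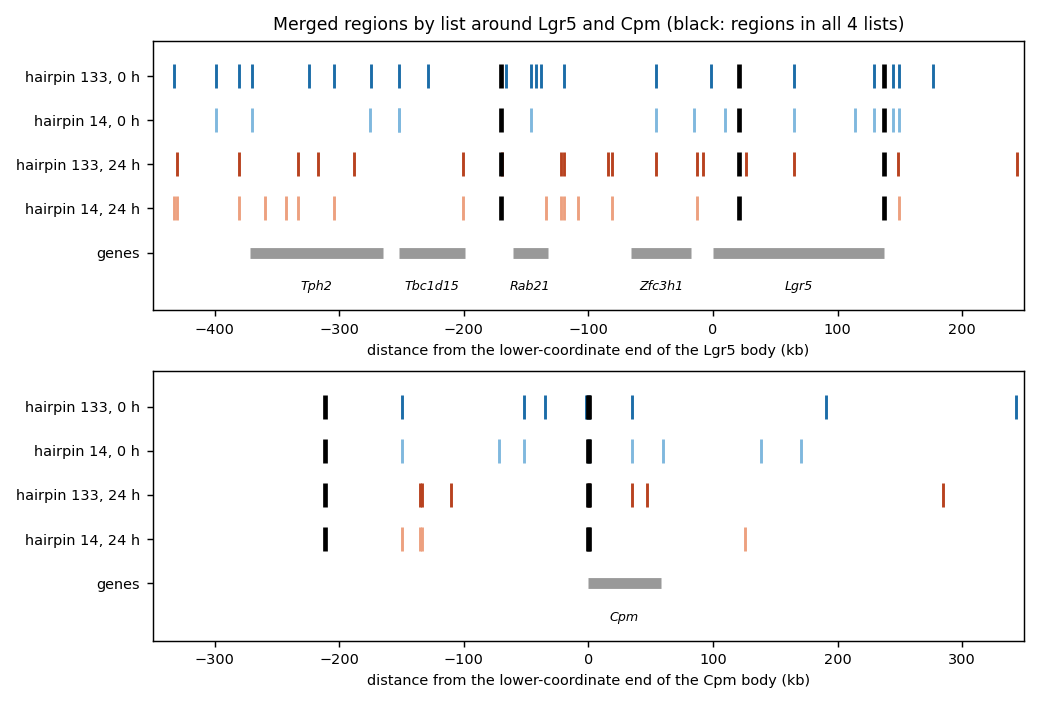
Merged regions (ticks) of each list around Lgr5 (upper panel) and Cpm (lower panel), placed by distance in kb from the lower-coordinate end of the gene body; black ticks are regions present in all 4 lists and grey bars are selected gene bodies, with other genes not drawn. The upper panel shows ticks from Tph2 to past Lgr5 with 3 black positions, and the lower panel shows black ticks at the start of Cpm and at 1 position well before it.

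Blood and immune genes had a peak in 7, 8, 7 and 7 of 29 members, 14 (48.3%) in any list and 4 in all, and with the gene body alone 7 members in any list. Bcr, a GTPase regulator known from its fusion with Abl1 in leukaemia, had 3, 2, 4 and 4 peaks in 9 regions. Matk, a kinase that restrains Src kinases in blood cells, and Arhgap9 each had a region of all lists in the body. Vpreb3, a pre-B cell gene, had 1, 2, 1 and 2 near it, and Il22, an interleukin gene, had 1, 2, 0 and 0. The list of cell cycle, apoptosis and p53 genes had a peak in 4, 7, 5 and 4 of 21 members, 10 (47.6%) in any list and 0 in all. Cradd, a death-domain adaptor, had 3, 1, 0 and 2 peaks, Pawr, a pro-apoptotic protein, had 1, 0, 1 and 2, and Csrp2 had 1, 1, 0 and 1. Dyrk2, a kinase of p53, had 0, 2, 2 and 0, and Frs2, an adaptor of fibroblast growth factor receptors, had 0, 2, 1 and 0.

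G protein, lipid and calcium signalling, the part of the interval nearest in function to the targeted phospholipase, had a peak in 5, 6, 7 and 6 of 18 members, 10 (55.6%) in any list and 3 in all, and with the gene body alone 6 in any list. Gng7, a G protein gamma subunit, had 1 peak in every list in 4 regions, so none was common to all. Gnaz, a G protein alpha subunit, had 1, 1, 0 and 1, and Atp2b1, a calcium pump of the plasma membrane, had 0, 1, 1 and 1. Apba3, 1 of the 3 members with a peak in all lists, had 1 in every list. It was the peak in the body of its neighbour Matk, which also counts among the blood and immune genes.

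Olfactory receptors of the interval had 0 of 68 members with a peak in any list. An upper limit of 4.41% (3 counts of the total) would need independent members, but these genes lie next to each other in clusters. The median length of the olfactory receptors was 0.939 kb. Genes of DNA methylation and demethylation (Dnmt3l, Mbd3, Tdg and Gadd45b) had 0 of 4, and genes named Zfp, which encode zinc finger proteins, had 0 of 5, numbers too small to set apart from the 42.0% of all genes. Of the microRNA hairpins of the interval in RefSeq, none overlapped a peak, and Mir678 had a peak within 1 kb in 1 list. Summed over the lists, peaks covered 159 kb of 59.4 Mb, so any set of such short stretches would seldom meet one. The absence of overlap is therefore not a result about microRNA genes.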

How the data were processed

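Genomic DNA of each library was enriched with MBD2-Fc and the 1 M NaCl fraction was sequenced, per the labels' protocols. The authors deposited 1 peak list per library with Plcg1 hairpin, holding chromosome, start and end in base pairs and no score, count or strand. Per the submitters' processing notes, BWA, Picard, SAMtools and HOMER were used on mm10; roles, versions, control and threshold are not given in the sources used here.

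Starts were converted to 1-based. Peaks that overlapped by 1 bp or more were called shared. Genes, and start-site windows with strand, came from RefSeq tables with GRCm38.p6 positions, equal to those of mm10; predicted genes were counted but not named, apart from Gm40770. Shares of peaks were compared between the interval and the other placed chromosomes by two-sided Fisher's exact tests at a threshold of 0.05, after Benjamini-Hochberg adjustment of all 24. The 24 include the tests of being found in a second list, and the adjustment was not repeated without them. Neighbouring peaks are not independent, so these p-values describe the lists. The code was tested on simulated data. A further gene that the naming rule covers is not reported here. Members, gene lists and tests were chosen with earlier results of these data known. Genes were named by rule: up to 30 with a peak in all lists, by number of regions, up to 10 with most regions in the body, up to 5 per gene list with peaks in most lists, and those at the densest bins and runs. Python 3.11.15, pandas 2.3.3, NumPy 2.4.6, SciPy 1.17.1 and Matplotlib 3.10.9 were used. Alternatives changed the overlap, windows, bins, members and reference peaks.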

Additional observations from a re-analysis of the deposited data

How the results depend on the processing

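Of 140 values recomputed under the alternatives, 100 kept their direction and their side of the threshold or moved within 1.5 times; the other 40 follow, as percentage points (interval minus other chromosomes). Chromosomes 11 and 12 give fewer reference peaks, and a larger share of these was found in a second list than on all other chromosomes. Against them, the share with the other hairpin was 3.17, 2.005, 3.80 and 5.59, at the other time 5.12, 1.97, 3.56 and 1.48, at gene ends -5.85, -8.22 and -5.60 (without hairpin 14 at 0 h) and over 10 kb from genes 5.53 (hairpin 14, 24 h), none past the threshold. With peaks thinned to 10 kb apart, 6.57 (other hairpin, hairpin 14 at 0 h), -4.57 (gene ends, hairpin 133 at 0 h) and 5.01 (far from genes, hairpin 14 at 24 h) no longer passed. Without the fullest Mb, 6.05 (other hairpin, hairpin 133 at 0 h) and 5.79 (other time, hairpin 14 at 24 h) were lost, and -8.66 (gene body, hairpin 14 at 24 h) and 6.07 (far from genes, hairpin 133 at 24 h) passed. Leaving out peaks of identical coordinates, which by construction removes most shared peaks, turned the 0 h differences with the other hairpin to -0.544 and -0.477. Directions of 12 differences past no threshold also turned: the share far from genes for hairpin 14 at 0 h (-0.719 with Pcdh15 kept, -0.214 thinned, -0.122 over 50 kb), for hairpin 133 over 50 kb (-0.881 at 0 h, -0.578 at 24 h), the identical share at 0 h against chromosomes 11 and 12 (-4.02), and the gene-end share at 24 h minus 0 h for hairpin 133 (-0.519 thinned, -0.350 without the fullest Mb, -0.198 at 500 bp, -1.45 at 2 kb) and hairpin 14 (0.768 thinned, 0.676 at 500 bp). Gene-end windows of 500 bp gave -1.79 (hairpin 133, 0 h) and -4.29 (hairpin 14, 24 h), and 2 kb gave -4.89 (hairpin 133, 0 h), not past it. With Pcdh15 kept, the far-from-gene difference of hairpin 14 at 24 h was 4.89, and over 50 kb it was 0.593, not past it. With the gene body alone, blood and immune genes fell to 7 and G protein genes to 6. The causes were not tested. No paired analysis was possible because the labels give no replicate numbers and the tests compare peaks within lists, with 1 library a group. Read depth is unknown, so the precision of a peak itself cannot be given.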
